A study of Mus musculus with 20 samples.

Results

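Small nucleolar RNAs (snoRNAs) were examined in 2 expression tables of an Rnaseh2c knockdown. The genes were chosen by name alone: every row whose symbol begins with Snord or Snora, in any case. In the tumor table these were 96 of 20188 genes, 63 Snord and 33 Snora. In the cell table they were 1136 of 50667 Ensembl genes, 168 Snord and 968 Snora. The group was put together with the sh4 against scr results of both tables already known, so its counts and medians in that comparison are a description and no list test is given.

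Both tables compared 3 libraries with a scramble control shRNA (scr, genotype given as wild type) with 3 libraries carrying sh4, an shRNA against Rnaseh2c. Rnaseh2c encodes a scaffold subunit of RNase H2, the nuclease that cuts RNA out of RNA/DNA hybrids. The cell libraries hold total RNA of Mvt1, a mammary carcinoma line of FVB background, from 3 plates per group. The tumor libraries were made from mRNA of primary mammary tumors, taken 30 days after those lines had been implanted in female FVB mice, with 1 tumor per group from each of 3 experiments. Both lines had been transduced and kept under puromycin, so the controls also carry a vector and the knockdown rests on 1 hairpin. The plates are replicate cultures of 1 line per group, so p-values in the cell table measure the spread between plates. Tumors contain stroma and immune cells beside Mvt1 cells, and in such bulk samples fewer cells of a type and less RNA per cell cannot be told apart.

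snoRNAs are short, stable, nonpolyadenylated RNAs of the nucleolus, most of which are cut from the introns of a host gene. Box C/D snoRNAs (Snord) carry the enzyme fibrillarin and guide ribose methylation, and H/ACA snoRNAs (Snora) carry dyskerin and guide pseudouridylation, mainly of ribosomal RNA. A few, such as Snord22, Snord118, Snora73 and Snord14, take part in cutting the precursor of ribosomal RNA. Many hosts are genes of ribosomal proteins or translation factors, and others, such as Gas5 and Snhg1, are noncoding RNAs.

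The sequences of 6 genes whose values are described further on show the 2 classes side by side. They were read from NCBIM37 (mm9) at the positions of GENCODE vM1, 5′ to 3′, on the strand of the gene. In the Snord sequences the capitals mark the letters TGATGA of box C within the first 30 bases and CTGA of box D within the last 20, and in the Snora sequences they mark ACA within the last 10 bases.
Snord22: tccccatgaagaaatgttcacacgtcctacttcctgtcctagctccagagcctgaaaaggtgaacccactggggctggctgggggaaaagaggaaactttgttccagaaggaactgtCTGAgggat
Snord49a: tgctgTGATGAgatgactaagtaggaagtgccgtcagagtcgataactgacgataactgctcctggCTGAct
Snord96a: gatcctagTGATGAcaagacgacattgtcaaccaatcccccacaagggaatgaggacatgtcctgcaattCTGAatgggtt
Snora75: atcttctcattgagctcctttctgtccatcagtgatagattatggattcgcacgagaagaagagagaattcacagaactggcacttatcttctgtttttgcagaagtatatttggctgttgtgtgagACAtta
Snora33: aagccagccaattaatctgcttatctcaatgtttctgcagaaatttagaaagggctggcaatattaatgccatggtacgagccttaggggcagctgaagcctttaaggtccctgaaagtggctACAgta
Snora41: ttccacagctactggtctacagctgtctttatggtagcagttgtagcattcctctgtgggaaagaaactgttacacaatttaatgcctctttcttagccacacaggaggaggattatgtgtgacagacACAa

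Snord22 lies at chr19:8800356-8800481 on the plus strand, overlapping an exon of Snhg1. Snord49a lies at chr11:62416952-62417023 on the plus strand in an intron of 2410006H16Rik, and Snord96a at chr11:48615534-48615614 on the plus strand, overlapping an exon of Gnb2l1. Snora75 lies at chr1:88247744-88247876 on the minus strand in an intron of Ncl, which encodes nucleolin. Snora33 lies at chr10:23505153-23505281 on the minus strand in an intron of Rps12, and Snora41 at chr1:63225578-63225709 on the plus strand in an intron of Eef1b2. In the annotation, TGATGA stood in that window in 75.8% of 347 Snord genes and 0.58% of 1031 Snora genes, and CTGA in 93.9% and 10.9%. The letters ACA stood in the last 10 bases of 64.4% of Snora and 5.19% of Snord genes. Among Snora genes with a mean of at least 5 FPKM in the cells the ACA share was 88.6% of 88, and among those under 1 FPKM it was 56.6% of 113. A match is a match of letters in that window and no more. The Snord22 window holds no TGATGA.

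The cell table was the richer one for these genes. Of its 1136 snoRNA genes 452 had a value above 0 in at least 1 library, 311 had one in all 6, and 684 were listed at 0 throughout. Most of the zeros belonged to families of many copies. The largest, Snora17, had 567 rows, of which 477 were at 0, and the highest value of any row was 36.4 FPKM. Snord113, Snord115 and Snord116, families of imprinted clusters known for expression in brain, had 22, 6 and 1 rows and all were listed at 0. In total 371 genes passed the filter of a mean of at least 0.1 FPKM, 122 Snord and 249 Snora.

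The targeted gene was checked in every library. Rnaseh2c stood at 5.83, 7.06 and 5.34 FPKM in scr cells and 3.19, 5.36 and 4.28 FPKM in sh4 cells, where the groups overlapped, and at 26.9, 52.0 and 25.9 RPKM in scr tumors and 10.2, 22.4 and 19.8 RPKM in sh4 tumors, where all sh4 values were lower. Summed FPKM over Ensembl genes ran from 659082 in scr plate 1 to 864566 in sh4 plate 2. Epithelial markers (Krt8, Krt18, Krt19, Epcam and Cdh1) summed to 437 to 552 FPKM in scr and 470 to 537 FPKM in sh4 cells. Nearly all of this sum came from Krt8 and Krt18. Krt19 was between 1.31 and 2.01 FPKM, and Epcam and Cdh1 were at 0.0228 FPKM or lower in every cell library. The T cell markers Cd3e, Cd3g, Cd3d, Cd2 and Trac were at or near 0 in all cell libraries, with 4 of 5 at exactly 0.

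In cells, snoRNA genes were mostly higher with sh4. The median log2 fold change (limma, on log2(FPKM + 0.5)) was 0.27 for Snord and 0.12 for Snora genes, against -0.0022 over all 21106 genes tested. It was above 0 in 104 of 122 Snord and 155 of 249 Snora genes. By limma, 13 snoRNA genes rose and 1 fell at an adjusted p under 0.05. Among all genes 0.521% rose and 0.758% fell by that rule, against 3.5% and 0.27% of the snoRNA genes. At an unadjusted p under 0.05 there were 90 higher and 10 lower snoRNA genes, where 9.55% and 9.33% of all genes met that rule. Every sh4 value lay above every scr value in 83 of the 371 and below in 8, against 13.6% and 13.8% of all genes. These counts share the contrast with which the group was put together, so nothing is read from them beyond the values.

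The number of calls was unstable. It was 0 without scr plate 3 or without sh4 plate 1, 1 without scr plate 2 or sh4 plate 2, 2 without sh4 plate 3, 11 without scr plate 1, 34 after median-ratio scaling and 1 after scaling all libraries to the same total, while the medians of both classes stayed above 0 in each of these fits. Calls over all genes moved too, from 270 in the main fit to 2 without scr plate 3 and 15 without sh4 plate 1. Without scr plate 2, sh4 plate 2, sh4 plate 3 or scr plate 1 they were 7, 18, 15 and 242. They were 961 after median-ratio scaling and 150 with equal totals, so the instability was not particular to snoRNA genes.

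The shares above 0 differed between levels. Of Snord genes with a mean of 20 FPKM or more, 38 of 39 were above 0 (median 0.33), and of Snora genes 38 of 43 (median 0.23). Among all genes at that level 73.0% were above 0, with a median of 0.08. Between 5 and 20 FPKM, 46 of 54 Snord genes (median 0.27) and 37 of 45 Snora genes (median 0.25) were above 0, against 59.4% of all genes. Between 1 and 5 FPKM it was 13 of 21 Snord genes (median 0.09) and 26 of 48 Snora genes (median 0.06), against 44.2% of all genes. Under 1 FPKM, 54 of 113 Snora genes (median -0.02) and 7 of 8 Snord genes (median 0.16) were above 0, against 41.1% of all genes. At 5 FPKM or more the medians were 0.29 for 93 Snord genes and 0.24 for 88 Snora genes. With all libraries scaled to the same total, 142 of these 181 genes (78.5%) stayed above 0 with a median of 0.16, against 37.0% and -0.05 for all genes of that level.

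**Figure D1:**
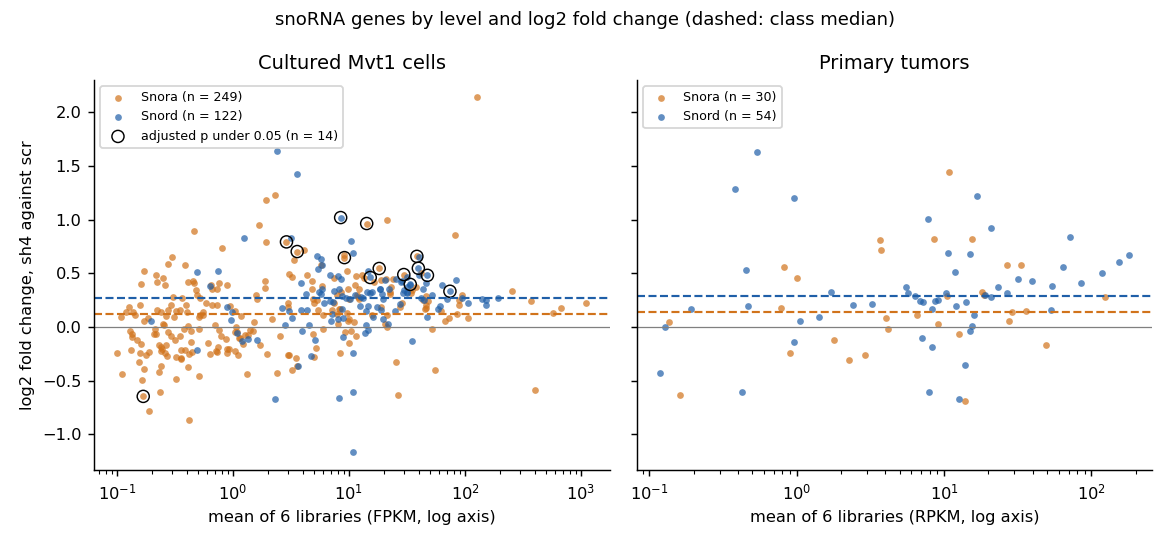
Log2 fold change of sh4 against scr (vertical axis) by mean level (horizontal log axis, FPKM in cells on the left, RPKM in tumors on the right), each point 1 snoRNA gene, blue Snord and orange Snora. Dashed lines mark the class medians, 0.27 and 0.12 in cells and 0.29 and 0.14 in tumors, and black rings the 14 genes with an adjusted p under 0.05, all in cells.

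Snord13 had the smallest p of all snoRNA genes in cells. It is transcribed from a gene of its own and is known to guide acetylation of the small subunit ribosomal RNA. Its level was 5.28, 5.36 and 5.65 FPKM in scr (mean 5.43 ± 0.194, SD, n = 3) and 11.2, 12.6 and 10.8 FPKM in sh4 (mean 11.5 ± 0.927, SD, n = 3). The sh4 plates stood about 2.13 times above the scr plates with no overlap, a log2 fold change of 1.02 (standard error 0.07, limma, adjusted p = 0.00798). Snord118, a box C/D RNA needed to process the large subunit RNAs and likewise made from its own gene, stood at 7.20, 7.96 and 9.40 FPKM in scr and at 10.7, 15.9 and 14.3 FPKM in sh4. The groups did not overlap there either, with a log2 fold change of 0.69 and an adjusted p of 0.0989 by limma, short of the threshold.

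Snord22, a processing RNA of the small subunit, measured 63.5, 65.4 and 68.0 FPKM in scr and 83.4, 81.9 and 82.9 FPKM in sh4. The rise was small but larger than the spread between plates (log2 fold change 0.33, standard error 0.05, adjusted p = 0.0455 by limma). Apart from Snord22 and Snord13, the genes listed here for a role in processing ribosomal RNA were not called. Snord14e, in the Hspa8 gene, was at 117, 149 and 158 FPKM in scr and 161, 165 and 160 FPKM in sh4, and Snord14a, at 11.9 to 16.7 FPKM over the 6 libraries, overlapped between groups. Snora73a, the most abundant snoRNA of the table, measured 899, 1082 and 1094 FPKM in scr and 1164, 1150 and 1269 FPKM in sh4. These groups did not overlap, with a log2 fold change of 0.23 and an adjusted p of 0.359 by limma. Its neighbour in Snhg3, Snora73b, was at 590, 265 and 621 FPKM in scr and 248, 317 and 362 FPKM in sh4, a log2 fold change of -0.59 (standard error 0.34), and overlapped. Of the 7 tested genes of this processing list 5 were above 0, 2 rose (Snord13 and Snord22) and none fell. The list leaves out SNORA73 (ENSMUSG00000064380) in Rpsa, 1 of 13 genes of that name in the annotation. It was at 245, 210 and 218 FPKM in scr and 269, 288 and 290 FPKM in sh4. Its groups did not overlap, with a log2 fold change of 0.33 and an adjusted p of 0.110 by limma.

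After Snord13, the genes that rose with the smallest p-values were Snora75, SNORA32, Snora33, SNORA54 and Snord49a. Snora75, the H/ACA RNA of the nucleolin gene, went from 6.95, 7.36 and 6.73 FPKM in scr to 11.4, 11.8 and 10.6 FPKM in sh4 (log2 fold change 0.65, standard error 0.06, adjusted p = 0.0181, limma). Snora33, in Rps12, went from 15.5, 14.8 and 13.9 to 22.02, 21.4 and 21.8 FPKM (0.55, standard error 0.06, adjusted p = 0.0218, limma). In both, the sh4 plates stood clear of the scr plates by more than the spread within either group.

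Snord49a, a methylation guide in an intron of the noncoding 2410006H16Rik gene, was at 28.7, 29.4 and 29.1 FPKM in scr and 39.9, 37.6 and 37.8 FPKM in sh4. Its log2 fold change was 0.40 (standard error 0.05) with an adjusted p of 0.0311 by limma. SNORA32 (ENSMUSG00000064620), in an intron of Rock2, rose from 2.04, 1.95 and 1.95 FPKM to 3.55, 3.68 and 4.198 FPKM, and SNORA54, in an intron of Nap1l4, from 2.73, 2.45 and 2.63 to 5.01, 4.13 and 4.54 FPKM. The annotation holds 18 genes named SNORA32, and reads of near-identical copies may be divided between them by the counting.

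The single gene that fell, SNORA17 (ENSMUSG00000088550), was near 0, with 0.365, 0.360 and 0.225 FPKM in scr and 0.0501, 0 and 0.0119 FPKM in sh4. It is 1 of 612 genes of that name in the annotation, on the strand opposite to another gene. A different gene of the name, Snora17 (ENSMUSG00000077192) in Snhg7, rose from 23.4, 24.2 and 26.2 FPKM to 35.2, 32.7 and 36.4 FPKM. The other genes that rose were SNORD26 and SNORD27 of Snhg1, SNORD18 of Rpl4, SNORA62 of Rpsa and SNORA66 of Rpl5. SNORA66 went from 8.39, 9.47 and 10.5 to 20.7, 15.4 and 20.9 FPKM (0.96 on the log2 scale, standard error 0.14). Each of the 13 had every sh4 value above every scr value, with log2 fold changes from 0.33 to 1.02 and means from 2.89 to 74.2 FPKM.

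**Figure D2:**
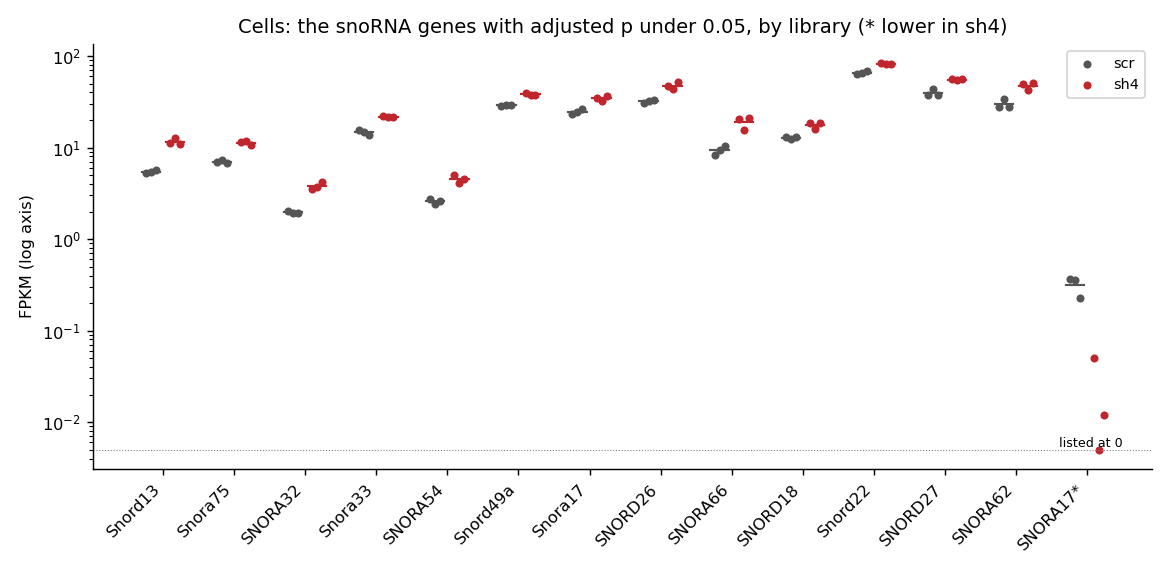
FPKM (vertical log axis) of the 14 snoRNA genes with an adjusted p under 0.05 in cells, each point 1 library (grey scr, red sh4) and each line a group mean of 3, drawn where no library is at 0. The 13 genes on the left have all sh4 points above all scr points, and SNORA17 on the right has them below, near or at 0.

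None of the most abundant genes was called. After Snora73a came SNORA32 (ENSMUSG00000065265) in Taf1d, with 553, 691 and 636 FPKM in scr and 710, 725 and 683 FPKM in sh4, and SNORA63 in Eif4a2, with 516, 615 and 496 FPKM and 621, 515 and 650 FPKM. The groups of both overlapped, with log2 fold changes of 0.18 and 0.13. SNORA48 in Eif4a1 was at 316, 442 and 274 FPKM in scr and 391, 371 and 439 FPKM in sh4. Among box C/D RNAs Snord17 was highest, with 167, 184 and 168 FPKM in scr and 184, 197 and 248 FPKM in sh4, where the lowest sh4 plate lay within the scr range. Snord15b in Rps3 was at 98.6, 112 and 81.0 FPKM and 110, 107 and 122 FPKM, again with overlap.

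Some genes differed widely between plates of the same group. Snora64, in Rps2, had the largest fitted log2 fold change of the table, 2.14 with a standard error of 0.87, from 14.6, 183 and 24.6 FPKM in scr to 191, 173 and 178 FPKM in sh4. Scr plate 2 was as high as the sh4 plates, so the groups overlapped. SNORD86 (ENSMUSG00000088909) was at 0.211 FPKM or lower in 5 libraries and at 13.7 FPKM in sh4 plate 3. SNORD63, in Hspa9, was at 11.9, 16.0 and 14.03 FPKM in scr, 3.55 and 3.30 FPKM in sh4 plates 1 and 2, and 16.5 FPKM in sh4 plate 3. None of the 3 passed the threshold.

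Snhg1 is a noncoding RNA whose introns carry box C/D RNAs. All 8 of its Snord genes were above 0 in cells, with log2 fold changes from 0.31 to 0.65 and a median of 0.43, and 3 of them rose. SNORD26 measured 30.5, 32.6 and 33.1 FPKM in scr and 46.8, 43.2 and 51.6 FPKM in sh4, and SNORD27 measured 37.6, 43.8 and 37.3 FPKM and 56.0, 54.5 and 55.5 FPKM. SNORD29 was at 25.6, 31.7 and 35.8 FPKM in scr and 50.6, 45.2 and 50.5 FPKM in sh4, with an adjusted p of 0.0693 by limma. Summed over the 8, the level was 241 to 291 FPKM in scr and 367 to 368 FPKM in sh4. The 8 are cut from 1 transcript and are not independent of each other.

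Gas5, the noncoding host with the most Snord genes here, gave a flatter set. All 8 listed members tested (Snord47, SNORD44, SNORD74, SNORD75, SNORD77, SNORD78, SNORD79 and SNORD81) were above 0, from 0.25 to 0.39, all with an unadjusted p under 0.05 and none past the adjusted threshold. SNORD78, its highest listed member, was at 120, 145 and 152 FPKM in scr and 166, 162 and 167 FPKM in sh4. Gas5 itself was at 48.0, 55.6 and 57.7 FPKM and 69.0, 65.9 and 61.0 FPKM, a log2 fold change of 0.28 and an adjusted p of 0.167 by limma. The host value lies within the range of its snoRNAs. The 4 Snord genes of Rpl13a, known from studies of lipid stress, had log2 fold changes of 0.19 (Snord32a), 0.33 (Snord33), 0.02 (Snord34) and -0.09 (Snord35a), beside -0.03 for Rpl13a, and overlapped between groups. Snord34 measured 13.1, 14.04 and 14.5 FPKM in scr and 15.2, 13.6 and 13.4 FPKM in sh4.

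**Figure D3:**
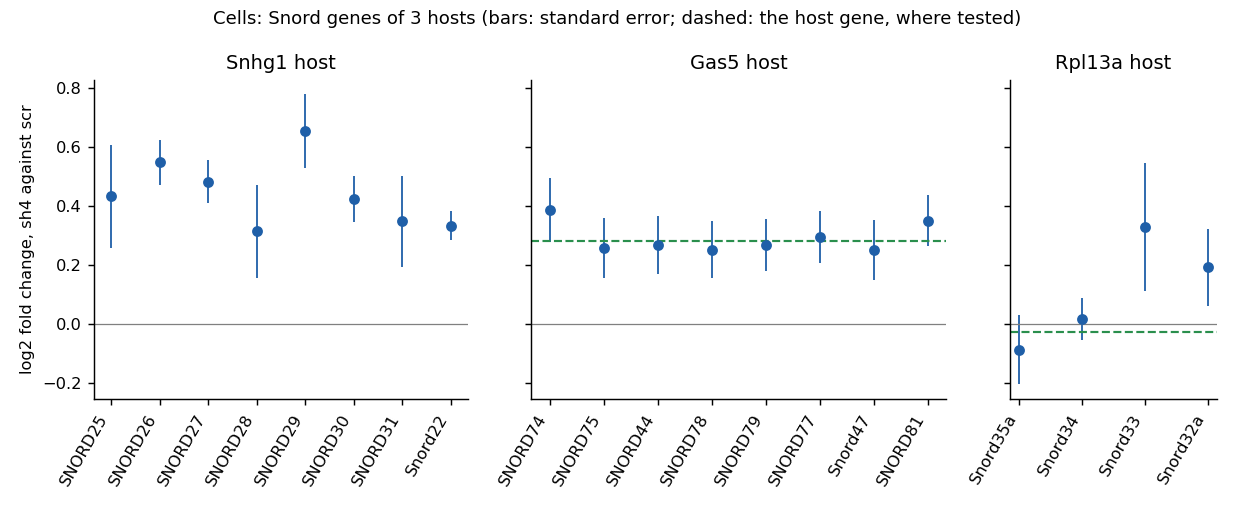
Log2 fold change of sh4 against scr in cells (vertical axis) for the Snord genes of Snhg1, Gas5 and Rpl13a, in genomic order, with bars of 1 standard error. All Snhg1 and Gas5 members lie above 0, the Gas5 members around the dashed line of Gas5 itself at 0.28, and the Rpl13a members between -0.09 and 0.33 around the dashed line of Rpl13a at -0.03.

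Over all hosts, 159 snoRNA genes with a mean of at least 5 FPKM had a host that was tested, 90 hosts in all. The median log2 fold change was 0.26 for the snoRNAs and 0.12 for the hosts. In 108 of the 159 the snoRNA lay above its host, by a median of 0.06 over all pairs, and the Spearman correlation of the 2 values was 0.22 across genes that share libraries and hosts. Counting hosts that were not tested as well, all 32 snoRNAs of that level in lincRNA hosts were above 0 (median 0.31), and 117 of 137 in protein-coding hosts (median 0.26). Reads of an unspliced host also fall on an intronic snoRNA, and reads of a spliced host can fall on one that overlaps its exon. The values cannot separate these from reads of the snoRNA itself. By position, and at all levels, the median was 0.27 for the 77 genes overlapping a host exon, 0.18 for the 186 in an intron and -0.05 for the 81 on the strand opposite to a gene. Outside any gene, all 8 Snord genes (median 0.44) and 14 of 19 Snora genes (median 0.21) were above 0. At 5 FPKM or more the median for Snord genes was 0.27 with exon overlap and 0.31 in an intron. For Snora genes of that level it was 0.27 and 0.18, so the order of the 2 positions differed between the classes. Only 4 opposite-strand genes were left at that level, the 1 Snord at 0.15 and the 3 Snora with a median of 0.11.

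The proteins that bind snoRNAs were measured in the same libraries. Of the core box C/D proteins Fbl, Nop56, Nop58 and Nhp2l1 all 4 were above 0 in cells and none was called. Nop56 was at 24.9, 28.7 and 27.9 FPKM in scr and 35.0, 31.9 and 34.4 FPKM in sh4 (log2 fold change 0.31, adjusted p = 0.0984, limma), while fibrillarin itself (Fbl) was at 0.08. Of the H/ACA proteins Dkc1, Nhp2, Nop10 and Gar1, 3 were above 0, with dyskerin (Dkc1) at 0.26, and Nop10 was at -0.22. Of 11 assembly factors 10 were above 0, with a median of 0.15, and Nolc1, a nucleolar chaperone of snoRNA particles, was at 0.33. No protein of these lists passed the threshold.

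Other classes of genes were counted the same way in cells. At all levels, spliceosomal snRNA genes were above 0 in 131 of 239 cases (median 0.06), histone genes in 54 of 58 (median 0.25), the Cajal body RNAs (scaRNA) in 13 of 23 (median 0.05) and microRNA genes in 176 of 408 (median -0.09). At 5 FPKM or more these were 16 of 17 (median 0.33), 49 of 52 (median 0.25), 6 of 10 (median 0.06) and 45 of 74 (median 0.06). Genes of ribosomal proteins, many of which are hosts, were above 0 in 147 of 188 cases at all levels (median 0.07) and in 120 of 148 at 5 FPKM or more (median 0.07).

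In tumors the table comes from mRNA libraries, and snoRNA values are low in reads. Values of the tumor table multiplied by the RefSeq length of the gene and by a constant for each library gave numbers within 0.1 of a whole read for 437 of 463 values above 0 (94.4%). The constants were fitted to these same values to give whole numbers, so that share is no independent check. The read numbers below rest on these products, for 89 of the 96 genes. In all, 84 genes passed the filter of a mean of 0.1 RPKM, 54 Snord and 30 Snora, and 7 were listed at 0 in all tumors, among them Snord116. The median tested gene had 122 reads summed over the 6 libraries, 47 had over 100, and 11 had fewer than 10.

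The tumor medians also lay above 0, at 0.29 for Snord and 0.14 for Snora genes (limma, log2(RPKM + 0.5)), with -0.04 over all 13487 genes. In all, 44 of 54 Snord and 21 of 30 Snora genes were above 0. None was called at an adjusted p under 0.05, and 0% of all genes were called. At an unadjusted p under 0.05 there were 10 higher snoRNA genes, 6 Snord and 4 Snora, and 1 lower, where 2.16% and 2.02% of all genes met the rule. All sh4 tumors lay above all scr tumors in 9 snoRNA genes (4.19% of all genes) and below in 0 (4.98% of all genes). Snord66 and Snord8, which are in both the 10 and the 9, had 0 reads in every scr tumor. They passed the filter through the sh4 tumors alone, and the 1 lower gene, Snora44, through the scr tumors alone. Of the 47 genes with over 100 reads, 41 were above 0 with a median of 0.30. The Snora median was -0.06 without sh4 tumor 1 and -0.0051 without scr tumor 2, and between 0.17 and 0.41 without 1 of the others, so its direction rested on those 2 tumors. The Snord median ran from 0.21 to 0.39. T cell markers, of which 4 of 5 are listed for tumors (not Trac), also differed, with sums of 16.8 to 22.6 RPKM in scr and 35.4 to 66.4 RPKM in sh4 tumors. Adipocyte markers summed to 23.6 to 1666 and 34.4 to 227 RPKM. Endothelial markers summed to 13.4 to 16.8 and 15.9 to 33.9 RPKM, and red blood cell markers to 192 to 804 and 66.2 to 309 RPKM. These sums overlapped between groups, as did those of epithelial, fibroblast and macrophage markers. The part of other cell types in the snoRNA values was not tested. Histone genes, whose main transcripts also lack a poly(A) tail, were above 0 in 1 of 53 cases in the tumors, with a median of -0.54.

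The lowest p-values of the tumor table belonged to genes of very few reads. Snord66, a methylation guide in Eif4g1, had 0 reads in each scr tumor and 2, 2 and 1 reads in the sh4 tumors (1.30, 1.30 and 0.650 RPKM), with an adjusted p of 0.693 by limma. Snord8 had 0 reads in each scr tumor and 1, 3 and 2 in the sh4 tumors. The single lower gene, Snora44 of Snhg12, had 1, 2 and 0 reads against 0 in each sh4 tumor. Counts of this size allow no fold change.

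Snord35a, in Rpl13a, had more reads. It was at 10.6, 16.5 and 15.6 RPKM in scr (25, 39 and 37 reads) and 22.8, 25.4 and 33.9 RPKM in sh4 (54, 60 and 80 reads). Its groups did not overlap, with a log2 fold change of 0.92, a standard error of 0.24 and an adjusted p of 0.991 by limma. The other Rpl13a members overlapped between groups, with log2 fold changes of 0.30 for Snord33 and 0.37 for Snord34.

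Snora26 was at 5.29, 7.17 and 5.597 RPKM in scr and 11.5, 12.5 and 9.03 RPKM in sh4, and Snord58b at 10.3, 6.17 and 13.7 RPKM and 30.1, 22.6 and 17.8 RPKM. Both were clear of overlap on 44 to 106 reads per group. Among genes with a negative value, Snora15 measured 17.2, 16.9 and 15.9 RPKM in scr and 17.8, 7.14 and 8.12 RPKM in sh4, a log2 fold change of -0.69 with an unadjusted limma p of 0.0676, in which sh4 tumor 1 was the highest of all 6. Snord45b was at 14.2, 8.38 and 22.6 RPKM and 19.2, 7.53 and 4.19 RPKM, and Snord70 and Snord110 had 1 and 4 reads in all.

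The highest levels in the tumors were those of the box C/D genes Snord104 and Snord22, followed by the H/ACA gene Snora65. Snord104 was at 120, 170 and 119 RPKM in scr and 154, 323 and 196 RPKM in sh4, with scr tumor 2 above sh4 tumor 1. Snord22 was at 99.2, 128 and 137 RPKM in scr (332, 428 and 459 reads) and 155, 205 and 194 RPKM in sh4 (518, 686 and 650 reads), with no overlap and a log2 fold change of 0.61, standard error 0.19. Snord96a, in Gnb2l1, was at 114, 88.1 and 92.8 RPKM and 149, 125 and 143 RPKM, again without overlap (0.50, standard error 0.17). The adjusted p was 0.995 for both by limma. Snord22 and Snord96a each overlap an exon of their host. In tumors the log2 fold change was 0.35 for Snhg1 and 0.02 for Gnb2l1. Of the 9 noncoding hosts tested in tumors, 8 were above 0, with a median of 0.28. The part of host reads in the snoRNA values of the tumors was not tested.

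Snord93, at 57.7, 55.3 and 109 RPKM in scr and 131, 67.0 and 92.9 RPKM in sh4, overlapped between groups. Snord100 of Rps12 was at 40.4, 45.5 and 60.9 RPKM and 47.0, 117 and 117 RPKM, with sh4 tumor 1 within the scr range. Among H/ACA genes Snora65 of Rpl12 led, with 98.6, 93.3 and 147 RPKM in scr and 135, 147 and 122 RPKM in sh4. Snora31, Snora30, Snora74a and Snora61 had means of 33.0, 49.0, 36.1 and 28.8 RPKM and log2 fold changes of 0.58, -0.16, 0.15 and 0.14, all with overlap. Gas5 had 1 listed member in this table, Snord47, at 68.3, 13.3 and 70.03 RPKM in scr and 76.9, 66.1 and 28.4 RPKM in sh4.

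**Figure D4:**
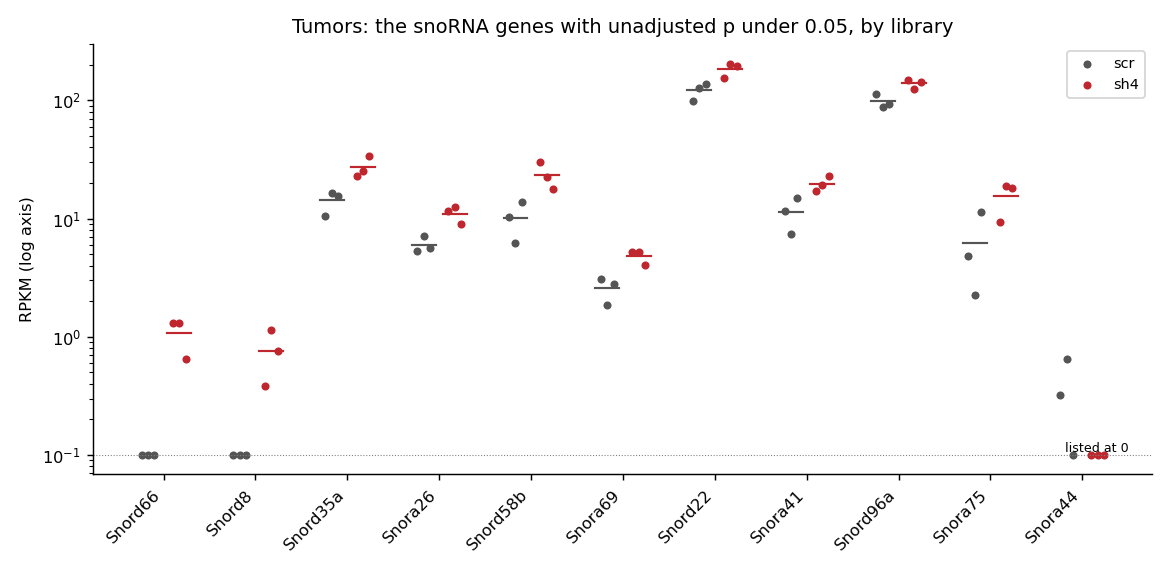
RPKM (vertical log axis) of the 11 snoRNA genes with an unadjusted p under 0.05 in tumors, each point 1 tumor (grey scr, red sh4) and each line a group mean of 3 (none where a library is at 0), with values of 0 on the dotted line. Snord66, Snord8 and Snora44 rest on 6 or fewer reads in all, while Snord22 and Snord96a have 180 reads or more in every tumor.

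Some members were low in 1 or both tumors of experiment 2. Snora81 was at 11.5, 2.30 and 12.4 RPKM in scr and 19.0, 2.99 and 6.20 RPKM in sh4, low in both tumors of experiment 2. Snord2 had 24, 2 and 12 reads and 42, 0 and 6 reads, with both tumors of experiment 2 the lowest of their group. Snord72 had 39.5, 3.77 and 42.0 RPKM and 37.0, 19.5 and 18.2 RPKM, where only the scr tumor of experiment 2 was the lowest of its group. Both tumors of experiment 2 were below the mean of the gene in 29 of the 84 genes (34.5%), against 41.2% of all genes. Deviations of the 84 genes in tumors of the same experiment correlated by 0.328, 0.408 and -0.039 in experiments 1, 2 and 3. With the experiment as a block no snoRNA gene was called either.

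In all, 68 symbols were tested in both tables. In cells 61 of them were above 0 and in tumors 52, with 45 above 0 in both, 16 in cells alone, 7 in tumors alone and 0 in neither. All sh4 values lay above all scr values in both tables for 3 of them, Snord22, Snord96a and Snora41, where 0.637% of the 10835 genes tested in both met that rule. Snora41 of Eef1b2 was at 10.1, 12.5 and 11.5 FPKM in scr cells and 15.9, 15.7 and 15.7 FPKM in sh4 cells, and at 11.7, 7.34 and 14.98 RPKM in scr tumors and 16.97, 19.3 and 23.0 RPKM in sh4 tumors. Its log2 fold changes were 0.46 and 0.82, with adjusted p-values of 0.0574 and 0.995 by limma. Snora75 differed in the same direction in tumors, at 4.87, 2.27 and 11.4 RPKM in scr and 9.40, 18.8 and 18.2 RPKM in sh4, but the groups overlapped there.

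The sizes of the differences did not follow each other between the tables, with a Spearman correlation of -0.0052 over the 68 genes. Snord35a, higher in the sh4 tumors without overlap, had a log2 fold change of -0.09 in cells. Snord66 was at -0.60 in cells (unadjusted p = 0.476, limma), but its 5 reads in tumors allow no fold change. Snora69, in an intron of Rpl39, went in opposite directions without overlap: 3.08, 1.85 and 2.78 RPKM in scr tumors and 5.24, 5.25 and 4.01 RPKM in sh4 tumors, but 58.7, 59.0 and 71.7 FPKM in scr cells and 58.5, 39.0 and 46.8 FPKM in sh4 cells. The order of levels was partly shared, with a Spearman correlation of 0.53. Snord17 was the most abundant Snord in cells, seventh among all snoRNAs, and ranked 77 of 84 in tumors with 16 reads in all. Snord104 led the tumors and ranked 28 in cells. The tables were made from different kinds of RNA and were normalized separately, so levels are compared by rank alone.

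**Figure D5:**
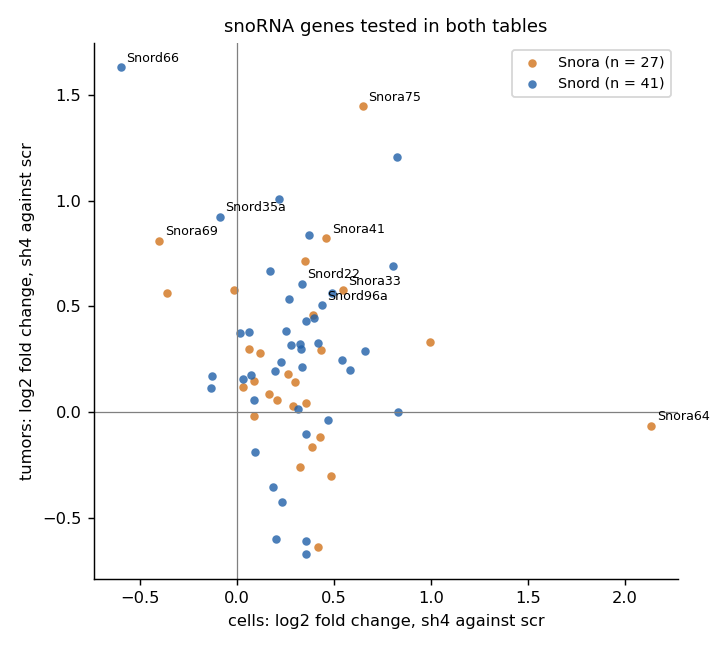
Log2 fold change of sh4 against scr in tumors (vertical axis) against that in cells (horizontal axis) for the 68 snoRNA genes tested in both, blue Snord and orange Snora, with 9 genes named. Most points lie to the right of 0 (61) and above 0 (52), without a common trend (Spearman -0.0052), and Snora69 lies in the upper left.

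Summed over all snoRNA genes, the cell libraries held 7370, 8337 and 8228 FPKM in scr and 9218, 9059 and 9408 FPKM in sh4. As a share of all FPKM this was 1.12, 1.06 and 0.998% in scr and 1.17, 1.05 and 1.19% in sh4, so the groups separated in the sum and overlapped in the share. The tumors held 1373, 1316 and 1723 RPKM in scr and 1945, 2010 and 1868 RPKM in sh4. Their shares were 0.331, 0.289 and 0.425% in scr and 0.486, 0.415 and 0.431% in sh4, with scr tumor 3 above sh4 tumor 2.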

How the data were processed

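The tumor values are RPKM that the authors deposited per gene, from mRNA libraries read on a HiSeq2500, trimmed with Trimmomatic and mapped by Tophat to the mm9 genome and the transcripts of Ensembl v70. The cell values are FPKM that the authors deposited for Ensembl genes and assembled loci, from total RNA. For these libraries the study's methods name Tophat with the GENCODE annotation of long noncoding RNAs, and DESeq2 for the authors' own comparison, but not how the FPKM table, which holds coding genes too, was made; its build and counting program are not given in the sources used here. The submitters' notes also name TopHat2 2.1.0 and STAR 2.7 without roles. Of 290541 rows of the cell table, 239874 assembled loci were dropped. GENCODE vM1 gave a symbol to 32709 of the remaining 50667. No sample column was left out. Exome libraries of metastases were not analysed here.

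The snoRNA genes and all lists were chosen with earlier results of these data known. After a filter that kept means of 0.1 or more (6 libraries), sh4 was compared with scr on log2(value + 0.5), each table by itself. The test was limma 3.58.1 (trend option, R 4.3.3), and p-values were adjusted after Benjamini and Hochberg across every gene tested. A gene was called at an adjusted p under 0.05. The added 0.5 shrinks fold changes of low genes. Genes were named if called (the 6 of each direction with the smallest p), otherwise the 5 of each direction with the smallest unadjusted p, with the 5 Snord and 5 Snora of the highest mean, the processing list and the members of Rpl13a, Gas5, Snhg1 and Snhg3; others named, such as Snora64, SNORA66, SNORD18, SNORA62, Snora17 and Snora81, were picked with their values seen.

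Tumor numbers pair the groups because the labels give 1 tumor of each group per experiment; deviations of paired tumors correlated by 0.138, 0.330 and -0.117 over all genes. Depth is unknown for the cell table, and the spread between libraries gives the precision. Reads of tumor genes were worked out from RefSeq lengths and a fitted constant for each library. Alternatives were other pseudocounts, filters and scalings, a replicate block, no trend and leaving out each library; scaling to equal totals was chosen after seeing the data. The fits were first tested on simulated data. The sequence of 1 gene is not reported here.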

Additional observations from a re-analysis of the deposited data

Results flagged for a closer look

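Snora69, an H/ACA gene in an intron of Rpl39, was the 1 gene of the 68 tested in both tables whose groups did not overlap in either table and lay in opposite order. Its log2 fold change was 0.81 in tumors (standard error 0.24, on 6 to 17 reads per tumor) and -0.40 in cells (standard error 0.16), with every sh4 value above every scr value in tumors and below in cells. Taken singly, 4.19% of all genes had every sh4 value above in tumors and 13.8% had every sh4 value below in cells. The share of all genes in opposite order in both was not counted, so nothing is read from the 1 of 68. The difference between the tables was not tested, and neither value passed an adjusted p of 0.05 by limma (0.995 and 0.245).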

How the results depend on the processing

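The median log2 fold changes of Snord genes stayed above 0 under every setting tried, in both tables. In tumors the Snord median was 0.11 with a pseudocount of 10, and in cells it was 0.15 with a pseudocount of 10 and 0.16 with equal totals. The Snora median in cells was 0.18, 0.087 and 0.015 with pseudocounts of 0.1, 1 and 10, 0.072 without the filter, 0.20 for means of at least 1, 0.058 with equal totals and 0.10 to 0.15 leaving out 1 library. In tumors the Snora median was 0.23 and 0.047 with pseudocounts of 0.1 and 10, 0.099 with equal totals and -0.06 to 0.41 leaving out 1 tumor, and the Snord median 0.21 to 0.39. The number of snoRNA genes called in cells was 5 without the filter, 30 with quantile normalization, 34 with median-ratio scaling, 7 without the trend, 1 with equal totals and 0 to 11 leaving out 1 library, where fewer libraries enter each fit. In the same order, calls over all genes were 77, 1223, 961, 171, 150 and 2 to 242, against 270 in the main fit. The plate numbers of the cells do not pair the groups (correlations of deviations -0.061, -0.075 and -0.073), and with the replicate block 0 were called. In tumors 0 were called under every setting, with the replicate block too. Some single genes changed sign. With quantile normalization and with equal totals Snord34 in cells was -0.034 and -0.087. Leaving out 1 library, it ran from -0.041 to 0.050, Snord14a from -0.16 to 0.076 and Snord35a from -0.14 to 0.017 in cells. In tumors Snord34 ran from -0.029 to 0.62, Snord47 from -0.39 to 0.82, Snora74a from -0.17 to 0.37, Snora61 from -0.11 to 0.37, Snora30 from -0.58 to 0.25 and Snord33 from -0.033 to 0.54. The causes of these changes were not tested. Among the tested tumor genes, 11 had fewer than 10 reads in all, which limits their precision.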
